A study of Mus musculus with 12 samples.

Results

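The subject is 10 genes of efferocytosis, the clearance of apoptotic cells by phagocytes, that the paper names in its RNA sequencing of bone marrow-derived macrophages (BMDMs): Abca7, Tgm2, Rhog, Jmjd6, Xkr8, Adgrb1, Thbs1 and Itgav, to which it gives a promoting role, and Hmgb1 and Rab14, to which it gives a suppressing role. They are 10 of 43453 gene names in the deposited counts, and of the 17 efferocytosis genes named in the paper they are those that are neither complement, TAM receptor, TREM or CD300 genes nor Ccl2. They were found by their gene name, and for each gene the transcript row with the highest total count was taken. Marrow of C57BL/6 mice was used, either tlr4f/f, with loxP sites around tlr4, or tlr4f/f-lysM-cre, where the myeloid lysM (Lyz2) promoter drives Cre and tlr4 is lost from cells that have expressed it. Macrophages grew out over 7 days in M-CSF (50 ng/mL), and LPS, the ligand of TLR4, was given at 1 µg/mL for 6 h to one set of cultures of each genotype. The 12 libraries fall under 4 column headings with 3 libraries each, made of LPS+, or LPS- for unstimulated, followed by the genotype. No label says that the 3 libraries of a group came from separate mice or cultures, so the p-values measure the spread between these libraries, which may be technical.

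In efferocytosis, a dying cell exposes phosphatidylserine on its surface, soluble bridging molecules or membrane receptors of the phagocyte bind it, and a small GTPase cascade remodels actin around the corpse, which is then digested in the phagosome. Macrophages are the main efferocytic cells of most tissues, and their engulfment of dying cells is known to dampen inflammation. RNA levels in the macrophages report on the phagocyte's own supply of these proteins, not on uptake itself, which was not measured in these libraries.

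The targeted gene, the Cre locus and an LPS-induced cytokine were examined first, since they bear on the headings of the columns. Levels are given in CPM, read counts scaled by library size, with the 12 libraries brought to a common scale by the TMM method. Tlr4 held 77.0, 146 and 121 CPM under LPS- tlr4f/f and 117, 94.7 and 116 CPM under LPS- tlr4f/f-lysM-cre. It held 31.2, 28.0 and 24.5 CPM under LPS+ tlr4f/f and 27.4, 24.4 and 24.7 CPM under LPS+ tlr4f/f-lysM-cre. Tlr4 was thus low in both LPS+ groups and did not differ detectably between the genotypes as headed, with a log2 fold change of -0.07 ± 0.25 (SE) between the unstimulated groups (adjusted p = 0.847) and of -0.12 ± 0.09 between the LPS groups (adjusted p = 0.280). Counts over the whole transcript include exons outside any deleted part, so a remaining Tlr4 count does not show an intact gene. Lyz2, the lysozyme gene that carries Cre, ranged from 5953 to 23331 CPM in the 6 LPS- libraries, from 10.4 to 14.4 CPM under LPS+ tlr4f/f and from 52.4 to 75.3 CPM under LPS+ tlr4f/f-lysM-cre. Il1b, the gene of interleukin-1β and a known target of LPS, held 6.95, 4.08 and 0.0750 CPM under LPS- tlr4f/f and 2.69, 3.61 and 3.38 CPM under LPS+ tlr4f/f. It held 8224, 1633 and 2812 CPM under LPS- tlr4f/f-lysM-cre and 2604, 2671 and 2488 CPM under LPS+ tlr4f/f-lysM-cre. Il1b therefore followed the headed genotype, and Tlr4 and Lyz2 followed the headed stimulation. If the heading LPS- tlr4f/f-lysM-cre is exchanged with LPS+ tlr4f/f, Il1b follows LPS and Tlr4 and Lyz2 follow the genotype. No label settled which reading holds. LPS-, LPS+ and the genotype names below always mean the deposited headings, never an established state of the cells.

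**Figure D1:**
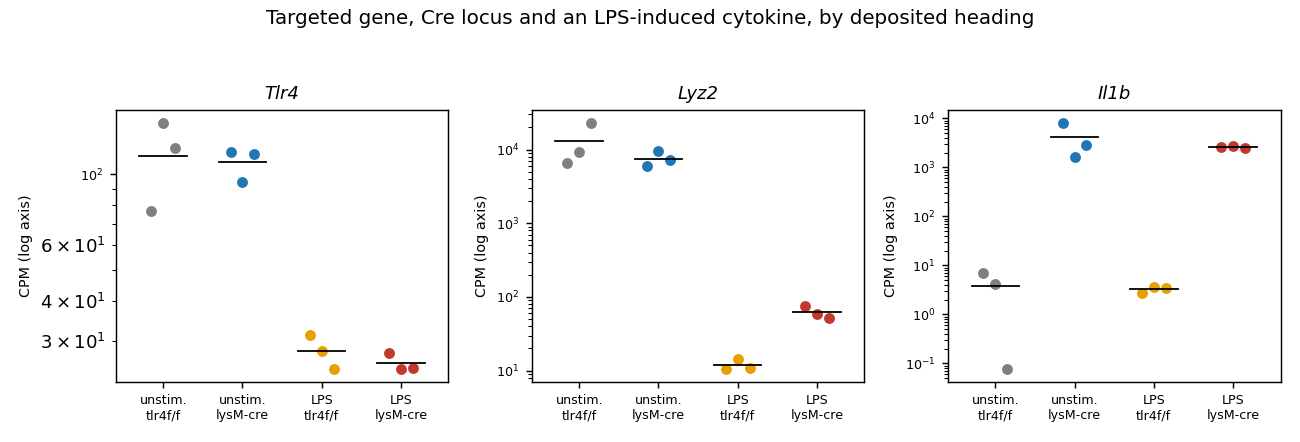
CPM of Tlr4, Lyz2 and Il1b (log axes) in the 3 libraries of each deposited heading, with points for libraries and lines for means. Tlr4 and Lyz2 are low in both LPS+ groups, and Il1b is high in both lysM-cre groups.

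An exchange of these headings leaves the same 4 pairs of groups under other names, so each pair is described once with both readings. The tlr4f/f pair compares the LPS+ tlr4f/f libraries with the LPS- tlr4f/f libraries. As headed it is the effect of LPS in tlr4f/f BMDMs, and with the exchange it is the genotype difference without LPS. The tlr4f/f-lysM-cre pair compares the LPS+ tlr4f/f-lysM-cre libraries with the LPS- tlr4f/f-lysM-cre libraries, which is the effect of LPS in tlr4f/f-lysM-cre BMDMs or, exchanged, the genotype difference with LPS. The unstimulated pair compares the LPS- tlr4f/f-lysM-cre libraries with the LPS- tlr4f/f libraries, which is the genotype difference without LPS or, exchanged, the effect of LPS in tlr4f/f BMDMs. The LPS pair compares the LPS+ tlr4f/f-lysM-cre libraries with the LPS+ tlr4f/f libraries, which is the genotype difference with LPS or, exchanged, the effect of LPS in tlr4f/f-lysM-cre BMDMs. The interaction of genotype and LPS is the same number in both readings.

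The libraries held between 33577440 and 56445989 counts over 1 row per gene. All 7 macrophage markers (Csf1r, Adgre1, Cd68, Itgam, Fcgr1, Cd14 and Lyz2) were above 3 counts in every library. The sum of 8 fibroblast and stroma markers (Col1a1, Col1a2, Col3a1, Dcn, Lum, Pdgfra, Postn and Sparc) was 771, 71.0 and 12.8 CPM under LPS- tlr4f/f and 1082, 157 and 1725 CPM under LPS- tlr4f/f-lysM-cre. It lay between 25.6 and 33.3 CPM under LPS+ tlr4f/f and between 37.3 and 55.2 CPM under LPS+ tlr4f/f-lysM-cre. The sum of 4 platelet markers, nearly all of it Pf4, ran from 0.825 to 68.7 CPM, from 88.7 to 260 CPM, from 16.6 to 19.9 CPM and from 46.1 to 54.8 CPM in the same order of groups. Neutrophil markers summed to at most 192 CPM and endothelial markers to at most 121 CPM, each in an LPS- tlr4f/f-lysM-cre library, and erythroid, B and T lymphocyte markers to at most 3.14 CPM. In bulk RNA, fewer cells of a type and less RNA per cell cannot be told apart.

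Of the 10 genes, 9 were well above the count floor in every library and were tested, and Adgrb1 did not pass the filter of the main test. The promoting genes Xkr8, Thbs1, Tgm2, Rhog, Jmjd6, Itgav and Abca7 had higher means under the tlr4f/f-lysM-cre headings than under the tlr4f/f headings, for LPS- and for LPS+. Hmgb1 showed the opposite order, and Rab14 varied least between groups. The paper chose these genes on these same libraries, so the directions below are not independent evidence of a role.

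**Figure D2:**
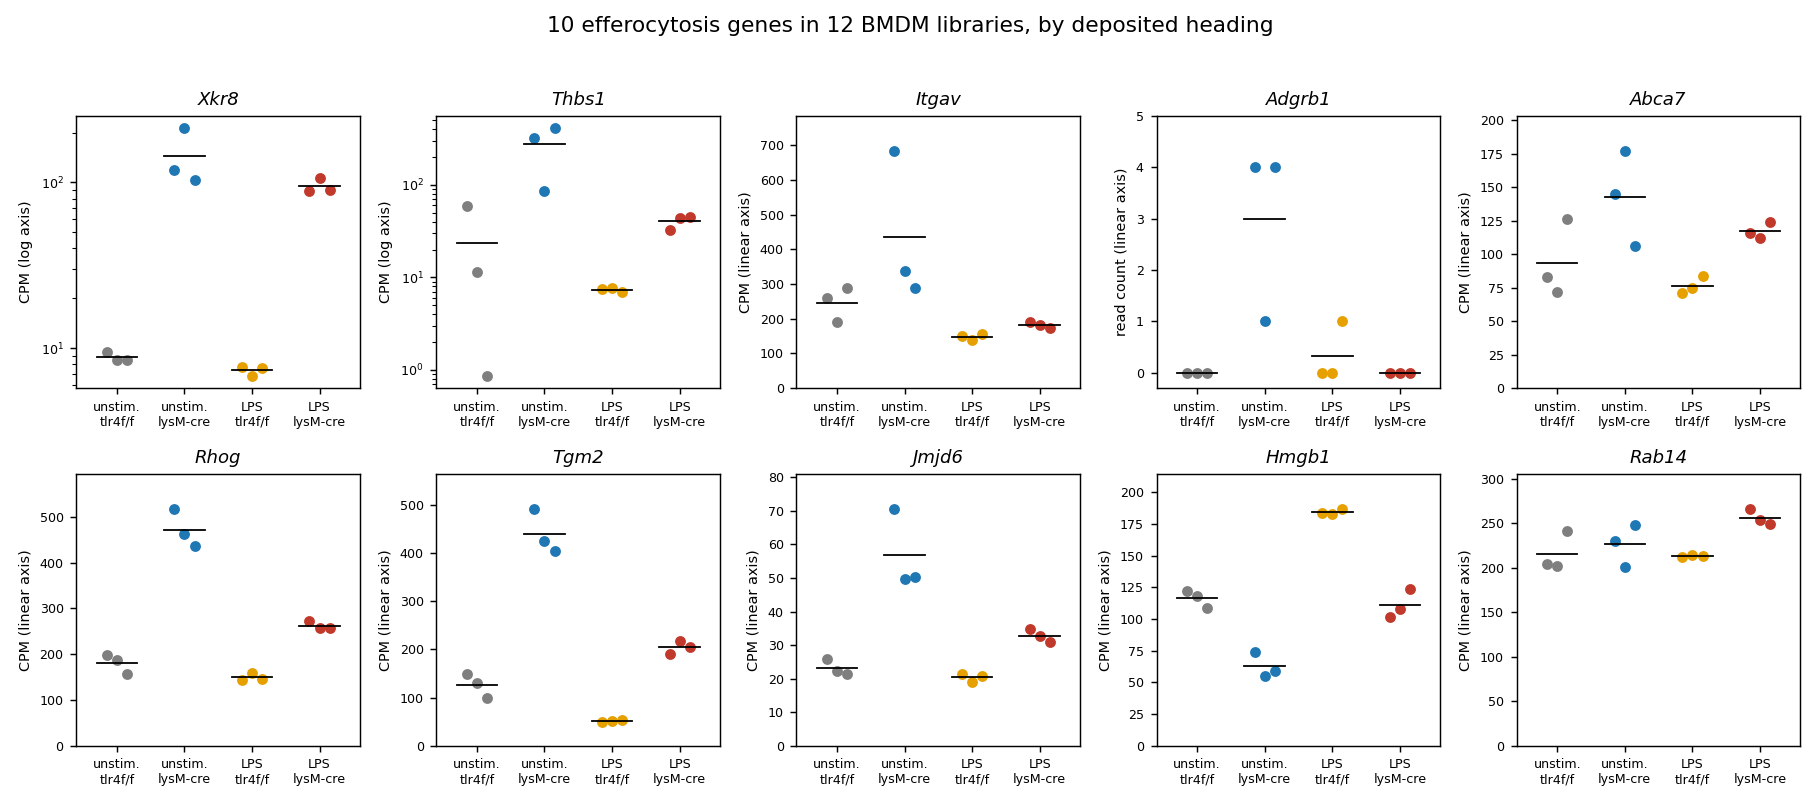
Level of each of the 10 genes in the 3 libraries of each deposited heading, in CPM (log axes for Xkr8 and Thbs1, linear for the others) and, for Adgrb1, in read counts. Points are libraries and lines are means. Xkr8 lies between 6.83 and 9.50 CPM in the 6 tlr4f/f libraries and between 88.7 and 212 CPM in the 6 tlr4f/f-lysM-cre libraries.

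Per kilobase of the transcript row used, Rhog was the most abundant of the 10 genes in each group, with a mean between 118 ± 6.17 CPM per kb (SD, n = 3) under LPS+ tlr4f/f and 374 ± 32.4 under LPS- tlr4f/f-lysM-cre. Under LPS- tlr4f/f, Rab14 followed with 70.0 ± 7.14 CPM per kb, then Hmgb1 with 40.7 ± 2.30, Tgm2 with 35.7 ± 7.05 and Itgav with 34.8 ± 7.16. The last 3 of these did not differ beyond their spread. Abca7 held 13.9 ± 4.25 CPM per kb, Jmjd6 9.70 ± 0.997, Thbs1 4.07 ± 5.32 and Xkr8 2.08 ± 0.138, and Abca7 and Jmjd6 overlapped in their spread, as did Thbs1 and Xkr8. Under LPS- tlr4f/f-lysM-cre the order was different: Tgm2 came next after Rhog with 124 ± 12.9 CPM per kb, ahead of Rab14 with 73.5 ± 7.73, and Xkr8 with 34.2 ± 13.9 was above Hmgb1 with 21.9 ± 3.62 in its mean but not beyond the spread. Under LPS+ tlr4f/f, where the spread was small, Rab14 (69.2 ± 0.407 CPM per kb), Hmgb1 (64.7 ± 0.654), Itgav (21.1 ± 1.34), Tgm2 (14.5 ± 0.671), Abca7 (11.3 ± 0.979), Jmjd6 (8.54 ± 0.536), Xkr8 (1.74 ± 0.112) and Thbs1 (1.26 ± 0.0532) followed Rhog, each apart from its neighbours by more than their SDs. Under LPS+ tlr4f/f-lysM-cre the order was Rab14 (83.2 ± 2.79), Tgm2 (57.5 ± 3.74), Hmgb1 (39.0 ± 3.89), Itgav (25.8 ± 1.32), Xkr8 (22.4 ± 2.28), Abca7 (17.3 ± 0.899), Jmjd6 (13.8 ± 0.754) and Thbs1 (6.91 ± 1.19), where Itgav and Xkr8 overlapped in their spread.

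**Figure D3:**
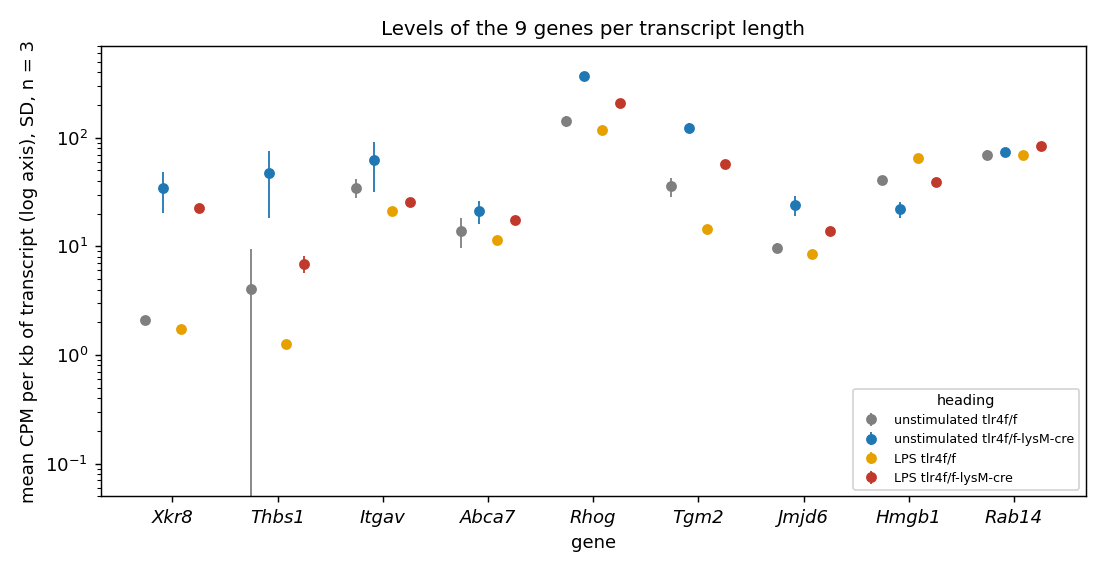
Mean CPM per kb of transcript (log axis) of the 9 genes with more than 4 counts, for the 3 libraries of each deposited heading, with bars for the SD, which for Thbs1 under LPS- tlr4f/f exceeds the mean and runs off the axis. Rhog is the highest in each group, and Xkr8 the lowest under LPS- tlr4f/f.

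Xkr8 (mm10 chr4:132724897-132732546, minus strand) encodes a phospholipid scramblase that, once cleaved by caspases, exposes phosphatidylserine on apoptotic cells. It showed the largest difference of the 10 genes. It held 9.50, 8.49 and 8.49 CPM under LPS- tlr4f/f, 119, 212 and 103 CPM under LPS- tlr4f/f-lysM-cre, 7.68, 6.83 and 7.63 CPM under LPS+ tlr4f/f and 88.7, 106 and 90.0 CPM under LPS+ tlr4f/f-lysM-cre. The libraries of the 2 headed genotypes did not overlap. In the unstimulated pair Xkr8 was 16.2-fold higher (log2 fold change 4.02 ± 0.31 (SE), adjusted p = 6.2e-04), and in the LPS pair 12.9-fold higher (3.69 ± 0.09, adjusted p = 6.7e-12). Within a headed genotype, the log2 fold change was -0.24 ± 0.13 in the tlr4f/f pair (adjusted p = 0.301) and -0.59 ± 0.26 in the tlr4f/f-lysM-cre pair (adjusted p = 0.141), where the groups overlapped. The 3 transcript rows of Xkr8 gave the same picture, with log2 ratios of the group means that differed between rows by at most 0.18.

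Thbs1 (chr2:118111876-118127133, plus strand) encodes thrombospondin 1, a secreted glycoprotein that bridges apoptotic cells to CD36 and αv integrins. It held 59.2, 11.3 and 0.862 CPM under LPS- tlr4f/f, 326, 86.5 and 411 CPM under LPS- tlr4f/f-lysM-cre, 7.51, 7.61 and 7.03 CPM under LPS+ tlr4f/f and 32.4, 44.3 and 44.6 CPM under LPS+ tlr4f/f-lysM-cre. The LPS+ groups were tight and apart from each other, whereas the LPS- tlr4f/f libraries held 3451, 709 and 46 counts. Thbs1 was 5.52-fold higher in the LPS pair (log2 fold change 2.47 ± 0.13, adjusted p = 7.5e-08) and 6.79-fold lower in the tlr4f/f-lysM-cre pair (-2.76 ± 0.56, adjusted p = 0.0148). In the unstimulated pair the log2 fold change was 3.53 ± 1.39 with an adjusted p of 0.0916, although the groups did not overlap. In the tlr4f/f pair it was -1.68 ± 1.21 (adjusted p = 0.435), and without replicate 1 of LPS- tlr4f/f it became 0.29. Within both LPS- groups, the order of the libraries by Thbs1 was their order by the sum of fibroblast and stroma markers given above. Within the LPS+ groups it was not. There replicates 1, 2 and 3 had sums of 33.3, 25.6 and 27.4 CPM (tlr4f/f) and of 55.2, 40.8 and 37.3 CPM (tlr4f/f-lysM-cre). Under tlr4f/f-lysM-cre this order was the reverse of that by Thbs1. Without the 3 libraries in which that sum exceeded 500 CPM, the log2 fold change was 3.85 in the unstimulated pair (adjusted p = 0.258) and -1.10 in the tlr4f/f-lysM-cre pair, with 1 library left under LPS- tlr4f/f-lysM-cre, which is assumed to vary like the others. The LPS pair holds none of these 3 libraries, and the part of stromal cells in the other differences was not tested.

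**Figure D4:**
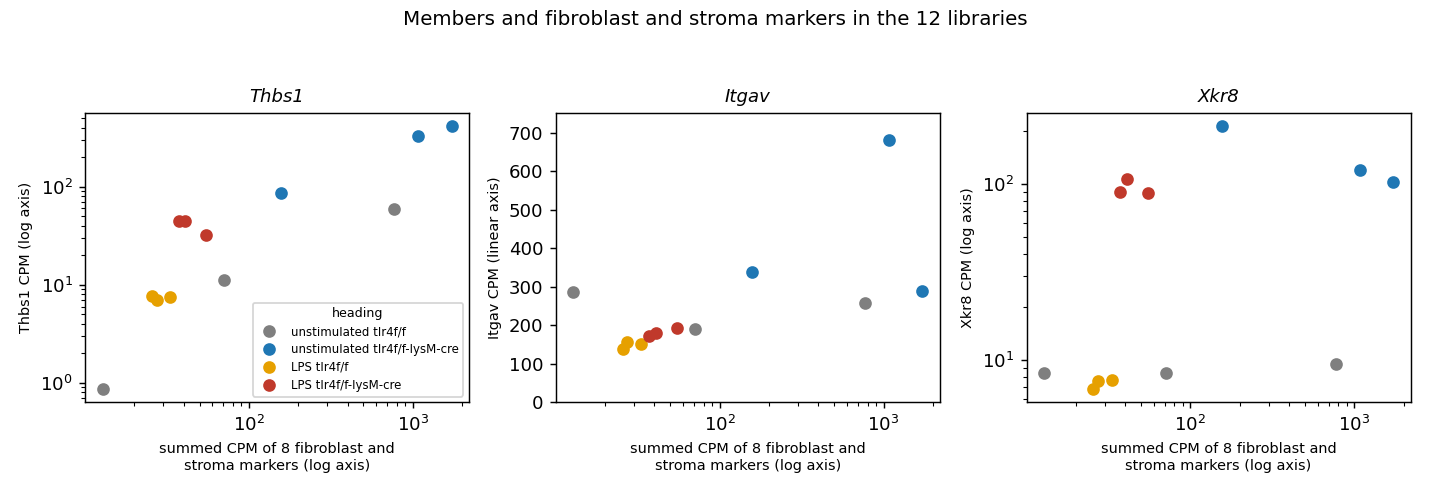
CPM of Thbs1 and Xkr8 (log axes) and of Itgav (linear axis) against the summed CPM of 8 fibroblast and stroma markers (log axis) in the 12 libraries, coloured by deposited heading. Thbs1 is lowest in the library with the lowest sum (0.862 CPM at 12.8 CPM) and highest in the library with the highest sum (411 CPM at 1725 CPM), while Xkr8 separates by the headed genotype and not by the LPS heading.

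Itgav (chr2:83724397-83806916, plus strand) encodes the αv integrin subunit, which with β3 or β5 forms receptors for bridging molecules. It held 259, 189 and 288 CPM under LPS- tlr4f/f, 682, 338 and 288 CPM under LPS- tlr4f/f-lysM-cre, 151, 138 and 157 CPM under LPS+ tlr4f/f and 192, 181 and 173 CPM under LPS+ tlr4f/f-lysM-cre. The level of 682 CPM, in replicate 1, stood apart from the other libraries of its group. Itgav was 1.23-fold higher in the LPS pair (log2 fold change 0.30 ± 0.06, adjusted p = 8.4e-04) and 2.38-fold lower in the tlr4f/f-lysM-cre pair (-1.25 ± 0.32, adjusted p = 0.0316). The TMM scaling factors were 1.16 to 1.19 under LPS+ tlr4f/f and 0.953 to 0.970 under LPS+ tlr4f/f-lysM-cre. A difference as small as that in the LPS pair depends on this scaling. The other differences did not pass, with 0.82 ± 0.36 in the unstimulated pair (adjusted p = 0.120) and -0.70 ± 0.16 in the tlr4f/f pair (adjusted p = 0.0757). The fibroblast and stroma marker sum of that replicate 1 was 1082 CPM. The order of the libraries by Itgav was not their order by this sum. Replicate 3 of the same group had the highest sum (1725 CPM) and the lowest Itgav of the group (288 CPM). Under LPS- tlr4f/f, the library with the lowest sum (12.8 CPM) held the most Itgav (288 CPM). Without the 3 libraries over 500 CPM, Itgav had a log2 fold change of 0.54 (adjusted p = 0.436) in the unstimulated pair and of -0.90 in the tlr4f/f-lysM-cre pair. The latter sets 3 libraries against 1, so its spread comes from the LPS+ libraries alone, and no p is given for it. Exons of Gm13684 on the other strand share 634 bases with those of Itgav.

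Adgrb1 (chr15:74516195-74589465, plus strand) encodes BAI1, an adhesion receptor that binds phosphatidylserine directly and signals through ELMO and DOCK proteins. It had 0 counts in all 3 libraries of LPS- tlr4f/f and of LPS+ tlr4f/f-lysM-cre, 4, 1 and 4 counts under LPS- tlr4f/f-lysM-cre, and 0, 0 and 1 count under LPS+ tlr4f/f. A count of 0 allows up to 3 counts, or between 0.0478 and 0.0823 CPM in the libraries with none. Such floors cover counting error only. Adgrb1 did not pass the filter of the main test, so no fold change was given for it at this depth. With its 12 rows summed, which share reads, it was tested in the tlr4f/f-lysM-cre and unstimulated pairs. There 7 and 6 of 10 members were called, instead of 6 and 5 of 9, beside 3523 of 15208 and 5154 of 15550 genes. Such a sum counts the few reads of Adgrb1 repeatedly. Without a filter all 10 were tested in each pair, and no count of called members rose.

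Rhog (chr7:102239123-102256054, minus strand) encodes a small GTPase that recruits the ELMO-DOCK complex and so activates RAC at the engulfment site. It held 198, 188 and 157 CPM under LPS- tlr4f/f, 517, 462 and 437 CPM under LPS- tlr4f/f-lysM-cre, 143, 158 and 147 CPM under LPS+ tlr4f/f and 273, 257 and 256 CPM under LPS+ tlr4f/f-lysM-cre. The highest tlr4f/f library was below the lowest tlr4f/f-lysM-cre library. Rhog was 2.59-fold higher in the unstimulated pair (log2 fold change 1.37 ± 0.17, adjusted p = 0.0021) and 1.77-fold higher in the LPS pair (0.82 ± 0.05, adjusted p = 5.1e-08). It was 1.79-fold lower in the tlr4f/f-lysM-cre pair (-0.84 ± 0.11, adjusted p = 0.0043), while in the tlr4f/f pair, whose groups overlapped, the log2 fold change was -0.26 ± 0.12 (adjusted p = 0.232).

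The bases just before the start of Rhog are shown with those of Hmgb1, which had the opposite order of groups, and of Rab14, which varied least, so that 3 members with different patterns can be compared. They come from RefSeq windows of build GRCm38.p6, which matched 6 of the 10 genes (Abca7, Rhog, Jmjd6, Itgav, Hmgb1 and Rab14) with 7 windows. Each runs 5′ to 3′ on the gene's strand and ends before the first annotated exon, and capitals mark the GC box GGGCGG on either strand. The windows of Rhog and Hmgb1 lie inside the GENCODE spans given here, since the RefSeq starts used lie downstream of the outermost GENCODE starts.
Rhog (chr7:102250124-102250368, minus strand): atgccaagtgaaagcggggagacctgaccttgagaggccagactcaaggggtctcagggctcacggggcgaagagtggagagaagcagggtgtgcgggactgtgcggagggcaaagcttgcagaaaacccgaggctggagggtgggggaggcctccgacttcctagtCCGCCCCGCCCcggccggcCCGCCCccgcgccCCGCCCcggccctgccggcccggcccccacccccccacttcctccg
Hmgb1 (chr5:149051617-149051866, minus strand): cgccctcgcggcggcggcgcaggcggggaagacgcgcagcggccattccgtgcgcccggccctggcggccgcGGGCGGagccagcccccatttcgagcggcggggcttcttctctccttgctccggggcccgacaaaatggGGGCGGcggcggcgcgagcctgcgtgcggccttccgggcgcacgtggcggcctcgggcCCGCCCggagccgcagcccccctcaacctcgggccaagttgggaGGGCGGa
Rab14 (chr2:35201121-35201370, minus strand): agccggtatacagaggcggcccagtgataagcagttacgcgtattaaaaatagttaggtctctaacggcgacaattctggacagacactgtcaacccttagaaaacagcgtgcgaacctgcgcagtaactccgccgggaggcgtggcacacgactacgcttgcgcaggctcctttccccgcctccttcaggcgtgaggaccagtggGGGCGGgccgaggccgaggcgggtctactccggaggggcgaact
The GC box was found 4 times before Rhog, 4 times before Hmgb1 and 1 time before Rab14, and 32.7% of 32851 windows of 250 bases hold it. CpG dinucleotides numbered 19 before Rhog, 39 before Hmgb1 and 23 before Rab14 against a median of 6 over all windows. Hmgb1 has another RefSeq window, not printed, that held 0 GC boxes and 19 CpG dinucleotides. The NF-kB consensus of 10 letters, the interferon response core (GAAA, any 2 bases, GAAA), the AP-1 site TGANTCA and the TATA box TATAAA, searched on both strands, were found in none of the 7 windows, and they occur in 7.25%, 2.98%, 6.75% and 12.4% of all windows. The absence of a match says only that these letters are not in these windows.

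Tgm2 (chr2:158116402-158146436, minus strand) encodes transglutaminase 2, a crosslinking enzyme and coreceptor of β3 integrins on macrophages. It held 149, 131 and 99.8 CPM under LPS- tlr4f/f, 491, 425 and 403 CPM under LPS- tlr4f/f-lysM-cre, 49.0, 51.1 and 53.8 CPM under LPS+ tlr4f/f and 190, 217 and 204 CPM under LPS+ tlr4f/f-lysM-cre. No libraries of different groups overlapped, and Tgm2 and Hmgb1 were the members that passed the test in all 4 pairs. It was 3.45-fold higher in the unstimulated pair (log2 fold change 1.79 ± 0.21, adjusted p = 0.0017) and 4.0-fold higher in the LPS pair (2.00 ± 0.06, adjusted p = 5.9e-11). It was 2.44-fold lower in the tlr4f/f pair (-1.29 ± 0.16, adjusted p = 0.0426) and 2.14-fold lower in the tlr4f/f-lysM-cre pair (-1.10 ± 0.12, adjusted p = 0.0027). Exons of Rprd1b and Gm20412 on the other strand cover 370 and 633 of its exonic bases. The kit named in the labels does not mark strand, so reads of these genes and of Tgm2 cannot be told apart there.

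Abca7 (chr10:79996494-80015572, plus strand) encodes an ABC transporter of lipids that promotes phagocytosis. It held 83.1, 71.8 and 126 CPM under LPS- tlr4f/f, 145, 177 and 106 CPM under LPS- tlr4f/f-lysM-cre, 70.9, 74.9 and 83.8 CPM under LPS+ tlr4f/f and 116, 112 and 124 CPM under LPS+ tlr4f/f-lysM-cre. The LPS- groups overlapped, and the LPS+ groups did not. It was 1.54-fold higher in the LPS pair (log2 fold change 0.62 ± 0.07, adjusted p = 4.3e-06), and a similar difference of 0.60 ± 0.27 in the unstimulated pair did not pass (adjusted p = 0.126). Its log2 fold change was -0.27 ± 0.21 in the tlr4f/f pair (adjusted p = 0.464) and -0.27 ± 0.18 in the tlr4f/f-lysM-cre pair (adjusted p = 0.299).

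Jmjd6 (chr11:116837432-116843449, minus strand) encodes a JmjC-domain hydroxylase of the nucleus that was once described as a phosphatidylserine receptor. It held 25.8, 22.2 and 21.3 CPM under LPS- tlr4f/f, 70.5, 49.6 and 50.3 CPM under LPS- tlr4f/f-lysM-cre, 21.4, 18.9 and 20.7 CPM under LPS+ tlr4f/f and 34.6, 32.8 and 31.1 CPM under LPS+ tlr4f/f-lysM-cre. Again the libraries of the 2 headed genotypes did not overlap. Jmjd6 was 2.45-fold higher in the unstimulated pair (log2 fold change 1.29 ± 0.19, adjusted p = 0.0037) and 1.62-fold higher in the LPS pair (0.70 ± 0.07, adjusted p = 3.4e-06). It was 1.72-fold lower in the tlr4f/f-lysM-cre pair (-0.78 ± 0.16, adjusted p = 0.0167), and in the tlr4f/f pair the log2 fold change was -0.17 ± 0.11 (adjusted p = 0.408). Exons of Mettl23 on the other strand share 172 bases with those of Jmjd6.

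Hmgb1 (chr5:149046702-149184489, minus strand) encodes a chromatin protein that, when released, binds phosphatidylserine and αv integrins and hinders the uptake of apoptotic cells. It held 122, 118 and 109 CPM under LPS- tlr4f/f, 74.3, 54.7 and 58.7 CPM under LPS- tlr4f/f-lysM-cre, 184, 183 and 187 CPM under LPS+ tlr4f/f and 102, 108 and 124 CPM under LPS+ tlr4f/f-lysM-cre. The LPS+ tlr4f/f libraries were above all others, and the LPS- tlr4f/f-lysM-cre libraries below all others. Hmgb1 was 1.87-fold lower in the unstimulated pair (log2 fold change -0.90 ± 0.17, adjusted p = 0.0075) and 1.65-fold lower in the LPS pair (-0.72 ± 0.07, adjusted p = 1.4e-06). It was 1.60-fold higher in the tlr4f/f pair (0.68 ± 0.09, adjusted p = 0.0431) and 1.79-fold higher in the tlr4f/f-lysM-cre pair (0.84 ± 0.15, adjusted p = 0.0113). The annotation names 13 copies or pseudogenes of Hmgb1, of which 1 has a row of its own in the counts, so that a part of its reads could be assigned elsewhere or not at all, and its level is uncertain to that extent.

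Rab14 (chr2:35180205-35201120, minus strand) encodes a Rab GTPase of the Golgi, endosomes and early phagosomes. It held 204, 202 and 241 CPM under LPS- tlr4f/f, 230, 201 and 248 CPM under LPS- tlr4f/f-lysM-cre, 212, 215 and 213 CPM under LPS+ tlr4f/f and 266, 254 and 250 CPM under LPS+ tlr4f/f-lysM-cre. Only the LPS+ tlr4f/f-lysM-cre libraries stood above all others. Rab14 was 1.21-fold higher in the LPS pair (log2 fold change 0.28 ± 0.05, adjusted p = 3.2e-04), which was the direction of the promoting genes and not that of Hmgb1. As for Itgav, a difference this small depends on the TMM scaling, whose factors differed between these groups. Its log2 fold change was 0.06 in the unstimulated pair (95% confidence interval -0.33 to 0.45), -0.00035 in the tlr4f/f pair (-0.24 to 0.24) and 0.19 in the tlr4f/f-lysM-cre pair (-0.11 to 0.49).

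**Figure D5:**
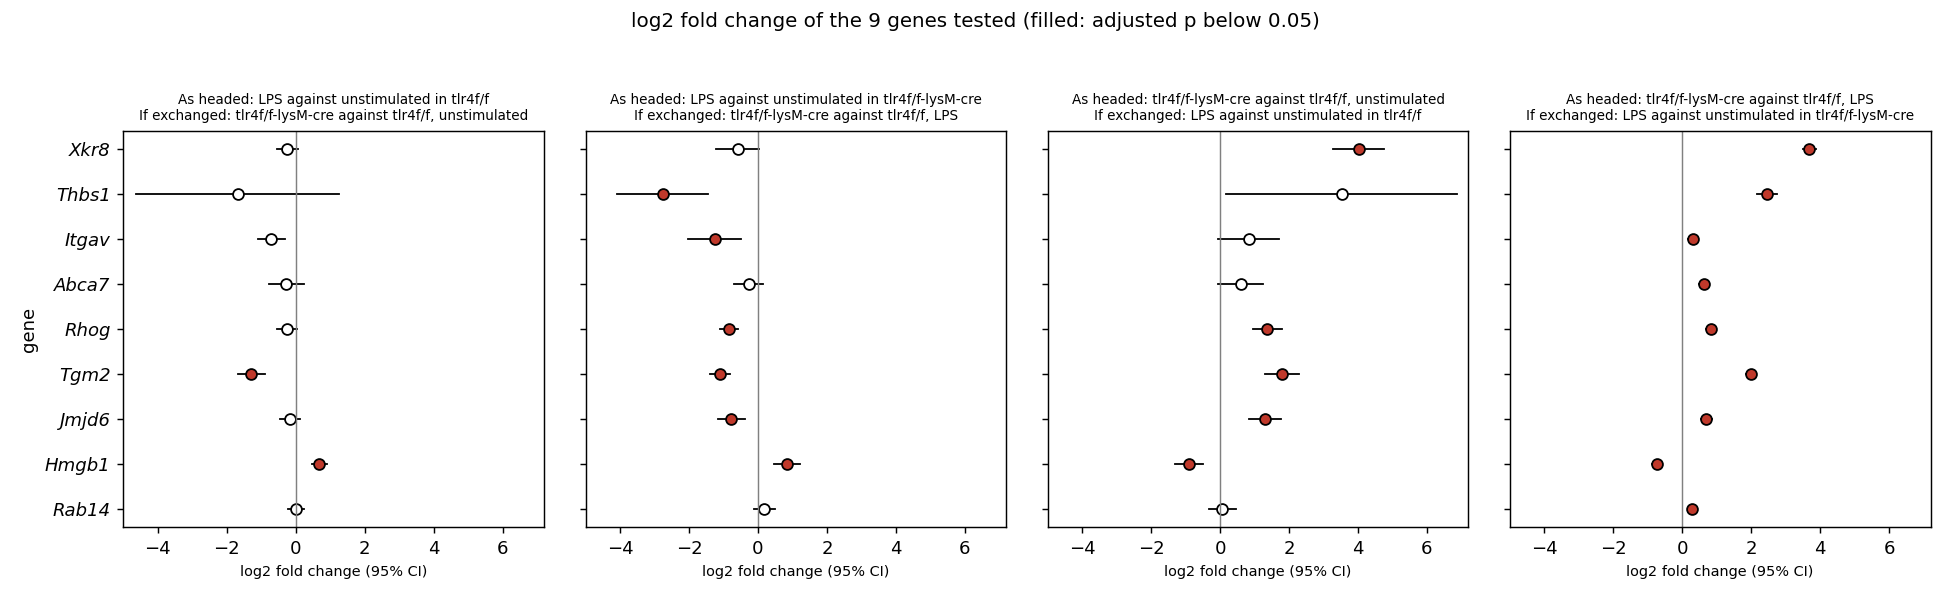
log2 fold change with its 95% confidence interval for the 9 genes tested in each of the 4 pairs, with the name of each pair as headed and with the headings exchanged. Filled points have an adjusted p below 0.05. All 9 are filled in the LPS pair, and Hmgb1 lies opposite to the promoting genes in each pair.

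In the unstimulated pair, which is the genotype difference without LPS as headed or the effect of LPS in tlr4f/f BMDMs with the exchange, 4 of the 7 promoting genes tested were higher at an adjusted p below 0.05 in edgeR (Xkr8, Tgm2, Rhog and Jmjd6). By the same test 17.9% of 14649 genes were higher and 19.4% were lower. These 4 were also differentially expressed genes (DEGs), here meaning an adjusted p below 0.01 together with more than a 2-fold change, against 17.1% of all genes in either direction. Of the suppressing genes, Hmgb1 was lower and Rab14 had an adjusted p of 0.777. The median log2 fold change of the 9 genes tested was 1.29, and that of all genes tested -0.08. Without the 3 libraries over 500 CPM of fibroblast and stroma markers, 2 libraries were left against 1. The log2 fold changes were then 4.68 for Xkr8, 1.91 for Tgm2, 1.45 for Rhog, 1.22 for Jmjd6 and -1.02 for Hmgb1. In a single fit over all 12 libraries 8 of the 9 genes were called, beside 8367 of 15792 genes.

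In the LPS pair, which is the genotype difference with LPS as headed or the effect of LPS in tlr4f/f-lysM-cre BMDMs with the exchange, all 7 promoting genes tested and Rab14 were higher, and Hmgb1 was lower. Calls were frequent in this pair, with 30.5% of 14551 genes higher and 31.0% lower. Of the 9 genes, 3 were DEGs (Xkr8, Thbs1 and Tgm2), beside 21.8% of all genes. The median log2 fold change was 0.70 over the 9 genes and -0.02 over all genes tested. Each of the 9 calls held without any 1 of the 6 libraries. When all 12 libraries shared a single fit, 5 of 9 were kept, beside 4914 of 15792 genes called.

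In the tlr4f/f pair, which is the effect of LPS in tlr4f/f BMDMs as headed or the genotype difference without LPS with the exchange, all 7 promoting genes tested had negative log2 fold changes, of which that of Tgm2 passed the test, and Hmgb1 passed in the other direction. Only 0.605% of 14712 genes were higher and 0.673% lower in this pair. The DEG criteria were met by 0 of the 9 genes and by 0% of all genes in edgeR, where 3 of the 9 genes and 3626 of all genes had an unadjusted p below 0.05, and by 1 of the 9 and 464 of all genes in DESeq2. The median log2 fold change was -0.26 over the 9 genes and -0.03 over all. Without replicate 1, 2 or 3 of LPS+ tlr4f/f no member was called, and over all genes 0 of 15326, 15347 and 15130 were called. The adjusted p then lay between 0.251 and 0.263 for both Tgm2 and Hmgb1. Itgav was called without replicate 2 of LPS- tlr4f/f (adjusted p = 0.0223), where 1002 of 15206 genes were called. Rhog was called without replicate 3 of LPS- tlr4f/f (adjusted p = 0.0334), where 2174 of 15240 genes were called. Without that replicate 3, Tgm2 was a DEG (log2 fold change -1.43, adjusted p = 0.0022), beside 182 DEGs over all genes.

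In the tlr4f/f-lysM-cre pair, which is the effect of LPS in tlr4f/f-lysM-cre BMDMs as headed or the genotype difference with LPS with the exchange, 5 of the 7 promoting genes tested were lower (Tgm2, Rhog, Jmjd6, Thbs1 and Itgav) and Hmgb1 was higher. Over all 14245 genes tested, 12.5% were higher and 14.2% were lower. Tgm2 was the only DEG of the 9, where 6.09% of all genes were DEGs. The median log2 fold change was -0.78 over the 9 genes and 0.03 over all. Without replicate 1, 2 or 3 of LPS+ tlr4f/f-lysM-cre, 3, 2 and 2 of the 9 genes were called and none was a DEG. Over all genes, calls went from 3804 to 1142, 1127 and 1039, and DEGs from 867 to 4, 7 and 15. Without replicate 2 of LPS- tlr4f/f-lysM-cre 2 of the 9 genes were DEGs, beside 1125 of 14910 genes.

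Against these pairs, the interaction asks whether the difference between the headed genotypes depended on the LPS heading. It passed for 0 of the 9 genes in edgeR, where 6.99% of 15792 genes passed. Over all genes, 3692 had an unadjusted p below 0.05 in edgeR, and DESeq2 called 2181. Of the 9 genes, 2 had an unadjusted p below 0.05, and DESeq2 called 2. These were Rhog, with an interaction of -0.57 ± 0.16 on the log2 scale (95% confidence interval -0.92 to -0.22, adjusted p = 0.0560), and Jmjd6, with -0.61 ± 0.20 (-1.05 to -0.17, adjusted p = 0.0978). The adjusted p of Rhog was 0.0021 in DESeq2, 0.0395 with RLE factors, 0.0290 among genes with at least 10 counts in every library and 0.0352 without replicate 3 of LPS- tlr4f/f-lysM-cre. For Thbs1 the interval ran from -4.17 to 2.02 and for Xkr8 from -1.04 to 0.34. Without the 3 libraries high in stromal markers the interaction of Xkr8 was -0.95 (adjusted p = 0.0068), but that leaves LPS- tlr4f/f-lysM-cre with replicate 2 alone, its highest library for Xkr8 (212 CPM), and without that library the interaction was 0.038.

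The spread between libraries of a group bounded what could be called. The coefficient of variation of the 9 genes ran from 0.588% for Rab14 to 8.64% for Abca7 under LPS+ tlr4f/f and from 3.35% for Rab14 to 17.2% for Thbs1 under LPS+ tlr4f/f-lysM-cre, beside medians of 8.18% and 9.04% over 15792 genes. It reached 131% under LPS- tlr4f/f, beside a median of 23.1%, and 61.3% under LPS- tlr4f/f-lysM-cre, beside a median of 26.2%, both for Thbs1.

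The rest of the pathway was read from lists of general knowledge. In the LPS pair their median log2 fold changes were 0.19 for exposure and eat-me signals, -0.26 for bridging molecules, -0.33 for receptors, -0.17 for signalling, 0.04 for phagosome genes and 0.26 for paralogues of the 10 genes, beside -0.02 over all genes. The counts below stand beside 30.5% of all genes higher and 31.0% lower in the LPS pair, 17.9% and 19.4% in the unstimulated pair, 12.5% and 14.2% in the tlr4f/f-lysM-cre pair, and 0.605% and 0.673% in the tlr4f/f pair. Of 13 genes of phosphatidylserine exposure and of eat-me or don't-eat-me signals, 11 were tested, and 6 were higher and 2 lower in the LPS pair and 2 higher in the unstimulated pair. Cd47, the don't-eat-me signal, led both, from 109 ± 6.90 to 303 ± 1.74 CPM (SD, n = 3) in the LPS pair (log2 fold change 1.49, adjusted p = 3.2e-10 in edgeR) and from 155 ± 4.84 to 533 ± 53.8 CPM in the unstimulated pair (1.78, adjusted p = 7.9e-04). In the tlr4f/f-lysM-cre pair 4 genes of this list were lower and 1 was higher, and in the tlr4f/f pair 1 was higher and 0 were lower. Among 8 bridging molecules, Gas6, the ligand of the TAM receptors, passed in all 4 pairs and was lower in each, from 323 ± 72.7 CPM under LPS- tlr4f/f to 112 ± 12.4 under LPS+ tlr4f/f, 94.1 ± 32.5 under LPS- tlr4f/f-lysM-cre and 35.1 ± 4.10 under LPS+ tlr4f/f-lysM-cre. Its order of groups was thus unlike that of Thbs1, and 1 other bridging gene passed, in the LPS pair.

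Of 19 engulfment receptors, 16 were tested in the LPS pair, where 4 were higher and 8 lower, and 15 in the unstimulated pair, where 4 were lower. Cd300lb, an activating receptor of the CD300 family, fell furthest in the unstimulated pair, from 272 ± 27.8 to 34.2 ± 10.2 CPM (log2 fold change -3.01, adjusted p = 6.7e-04). Cd300lf, its inhibitory relative, was furthest apart in the LPS pair, at 3.65 ± 0.559 against 0.338 ± 0.0794 CPM (-3.40, adjusted p = 1.7e-07). The tlr4f/f-lysM-cre pair had 1 receptor higher and 1 lower (Cd300lf, -4.01, adjusted p = 0.0018).

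Among 11 signalling genes, 9 were tested in the LPS pair with 4 higher and 5 lower, and 10 in the unstimulated pair with 2 higher and 1 lower. Dock1 and Elmo2, which act with RHOG in the activation of RAC, each led a pair in the direction opposite to that of Rhog. The genes called higher, 2 in the unstimulated pair and 4 in the LPS pair, went the same way as Rhog. Dock1 went from 40.1 ± 2.30 to 17.4 ± 1.93 CPM in the LPS pair (log2 fold change -1.20, adjusted p = 1.2e-07), and Elmo2 from 80.4 ± 9.26 to 32.3 ± 5.25 CPM in the unstimulated pair (-1.33, adjusted p = 0.0024). In the tlr4f/f-lysM-cre pair 1 was higher and 3 were lower, led by the adaptor gene Bcar1 (-3.58, adjusted p = 0.0240).

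Of 13 genes of phagosome maturation and cargo handling, 5 were higher and 5 lower in the LPS pair and 5 higher and 3 lower in the unstimulated pair. Pparg, a lipid-sensing nuclear receptor, was the most changed in both, at 10.9 ± 1.64 against 60.8 ± 5.13 CPM in the LPS pair (log2 fold change -2.47, adjusted p = 4.4e-09) and 8.03 ± 2.68 against 39.3 ± 8.59 CPM in the unstimulated pair (-2.30, adjusted p = 0.0027). The tlr4f/f-lysM-cre pair had 2 higher and 4 lower, led by Nr1h3, the gene of the liver X receptor α (-0.80, adjusted p = 0.0142).

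The paralogues of the 10 genes moved in both directions. Of 20 on the list, 15 were tested in the LPS pair with 8 higher and 4 lower, and 16 in the unstimulated pair with 5 higher and 1 lower. Itga5, the α subunit of a fibronectin receptor and a relative of Itgav, was 150 ± 10.2 against 1056 ± 30.6 CPM in the LPS pair (log2 fold change 2.83, adjusted p = 4.2e-12), where Itgav differed by 0.30, and it was also higher in the unstimulated pair (2.43, adjusted p = 0.0124). Thbs2, the relative of Thbs1, was lower in the tlr4f/f-lysM-cre pair, from 19.1 ± 15.3 to 0.371 ± 0.0538 CPM (-5.69, adjusted p = 0.0130), beside fibroblast and stroma marker sums of 157 to 1725 CPM and 37.3 to 55.2 CPM in these groups. In that pair 3 paralogues were lower and 1 was higher.

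The paper names 7 further efferocytosis genes, to be read beside the same shares of all genes. In the LPS pair, 4 of the 6 tested were higher (C3, Ccl2, C2 and Mertk) and 2 were lower (Cd300lf and Trem2), and in the unstimulated pair 2 of 7 were higher (C3 and C2) and 1 was lower (Trem2). In the tlr4f/f-lysM-cre pair 4 of 6 were lower (Cd300lf, C2, C3 and Ccl2), and in the tlr4f/f pair 1 of 6 was lower (C3, log2 fold change -2.87, adjusted p = 0.0442). The paper chose its 7 genes, too, on the same libraries.

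For each member tested, the gene nearest in pattern was sought by the root mean square difference of gene-centred log2 CPM over the 12 libraries among 15792 genes. The nearest gene of Tgm2 was Gm20412 (0.10 on the log2 scale), all of whose exonic bases lie on exons of Tgm2, so that the counts may come from the same reads. The nearest were Ifnar2 for Rhog (0.09), Msn for Jmjd6 (0.10), Maml2 for Abca7 (0.13), Snhg3 for Hmgb1 (0.12) and Srsf5 for Rab14 (0.06). Matches were looser for Itgav with Bbx (0.22), for Xkr8 with Psd (0.26) and for Thbs1 with Gja1 (0.39), where the members themselves varied by 0.62, 1.93 and 2.41 about their own means. The differences are descriptions over libraries that fall into 4 groups, and they were not tested.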

How the data were processed

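BMDM RNA was depleted of rRNA and made into libraries with a kit that does not mark strand, per the labels, while the paper speaks of polyA sequencing. The authors trimmed reads for adapters and quality, mapped them to mm10 (HISAT2) and deposited raw HTSeq read counts for 115140 transcript rows, of which 106335 are RefSeq and 8805 Ensembl. The submitters' processing notes name Trimmomatic 0.36. The strand setting is not given in the sources used here. Rows of a gene share reads, so the row with the highest total was used for each of 43453 genes. That left between 33577440 and 56445989 counts per library.

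Libraries were grouped by the deposited headings, with the exchanged reading given beside them. Counts were tested by the robust quasi-likelihood test of edgeR 4.0.16 (R 4.3.3) after filterByExpr and TMM scaling, with the 6 libraries of each pair and all 12 for the interaction, and p-values were adjusted by Benjamini-Hochberg over all genes tested. Errors of fold changes are SEs. TMM factors ran from 1.11 to 1.21 under LPS- tlr4f/f and from 0.703 to 0.823 under LPS- tlr4f/f-lysM-cre. Under LPS+ tlr4f/f they ran from 1.16 to 1.19, and under LPS+ tlr4f/f-lysM-cre from 0.953 to 0.970. The factors thus differed between the groups compared, and small fold changes depend on them. Members and lists were chosen with earlier results of these data known. Named genes are the 10 members, Tlr4, Lyz2 and Il1b, the gene of each list with the largest called change in each pair, and the nearest gene of each member. A gene that this rule named is not reported here. The further efferocytosis genes of the paper that passed were named after their values were seen. Tests were checked on simulated data. Positions come from GENCODE M21 and RefSeq. Alternatives were DESeq2 1.42.0, RLE scaling, a count filter of 1 in total or of 10 per library, a fit over all 12 libraries, a replicate block, summed rows or the second row of a gene, and each library left out. Leaving out 3 libraries high in stromal markers was added after seeing the data.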

Additional observations from a re-analysis of the deposited data

Results flagged for a closer look

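Among the members and the genes named from the lists, the interaction of genotype and LPS passed the test for a pair of CD300 receptors, so their difference between the headed genotypes depended on the LPS heading. For Cd300lb the interaction was 1.97 ± 0.26 (SE) on the log2 scale (adjusted p = 0.0042 in edgeR). For Cd300lf it was -2.74 ± 0.58 (adjusted p = 0.0217), with group means of at most 8.86 CPM. No member passed this test, and groups of 3 libraries were not tested for outliers.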

How the results depend on the processing

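Of 696 values of members under alternatives, 622 kept their direction and their side of the threshold, 30 lost and 21 gained significance, and 23 changed sign. The sign changes concerned values near 0 (Rab14 and the interaction of Abca7), Thbs1 in the tlr4f/f pair, and the interaction of Xkr8, which was -0.35 ± 0.31 in the main test. Rab14 in the tlr4f/f pair became 0.0055 with DESeq2 and with RLE factors, 0.0047 without a filter, 0.0048 with at least 10 counts, 0.0035 with the replicate block, 0.0081 with the sum over rows, and between -0.039 and 0.083 without single libraries, and in the unstimulated pair it became -0.1059 without the libraries high in stromal markers. Thbs1 in the tlr4f/f pair ranged from -2.24 to 0.29 without single libraries, positive without replicate 1 of LPS- tlr4f/f, which is also the library of that pair high in stromal markers. The interaction of Abca7 became -0.0682 with DESeq2 and with RLE factors, -0.0124 with at least 10 counts, -0.0147 with the replicate block, -0.2185 without the libraries high in stromal markers, and between -0.25 and 0.20 without single libraries, and that of Xkr8 ranged from -0.54 to 0.038, positive without replicate 2 of LPS- tlr4f/f-lysM-cre.

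Counts of called members moved as follows. In the tlr4f/f pair 2 became 0 with the replicate block and 1 with the sum over rows and with the second row, and 0 DEGs became 1 with DESeq2 and with all 12 libraries in a single fit. In the tlr4f/f-lysM-cre pair 1 DEG became 3 with DESeq2, 2 in the single fit, 0 with the replicate block and the second row, and 4 without the libraries high in stromal markers. In the unstimulated pair 5 calls became 8 in the single fit, 3 (of 6 members tested) with the second row and 1 without the libraries high in stromal markers, and 4 DEGs became 2 and 0 under these last settings. In the LPS pair 9 calls became 5 in the single fit. The interaction called 2 members with DESeq2 and without the libraries high in stromal markers, and 1 with RLE factors and with at least 10 counts. Without single libraries, calls ranged from 0 to 3 in the tlr4f/f pair, 2 to 7 in the tlr4f/f-lysM-cre pair, 5 to 6 in the unstimulated pair, 9 to 9 in the LPS pair and 0 to 1 for the interaction, and DEGs, in the same order of pairs, from 0 to 1, 0 to 2, 2 to 4 and 3 to 3. In the unstimulated pair 2 DEGs were left without replicate 2 of LPS- tlr4f/f. Over all genes, calls without single libraries ranged from 0 to 2174 in the tlr4f/f pair and from 1039 to 4960 in the tlr4f/f-lysM-cre pair. They ranged from 3882 to 4495 in the unstimulated pair, from 8354 to 8741 in the LPS pair and from 368 to 1539 for the interaction. The cause of these changes was not tested, except that the second row exists for 6 members.

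Replicate numbers were shared by the groups. Of 18 same-numbered pairs of libraries, 5 had deviations from their group means that correlated above 0.1 (r from -0.04 to 0.47). Of 36 differently numbered pairs, 3 did (r from -0.49 to 0.20). Whether the numbers pair the samples was therefore not settled, and the main tests left them out. With the replicate block, calls of members outside the tlr4f/f pair stayed at 6 (tlr4f/f-lysM-cre), 5 (unstimulated), 9 (LPS) and 0 (interaction), and over all genes the calls went from 188 to 0 in the tlr4f/f pair, from 3804 to 2446, from 5471 to 5794 and from 8938 to 9404 in the others. Over all genes, DESeq2 gave 2293 calls where edgeR gave 188 and 464 DEGs where edgeR gave 0 in the tlr4f/f pair, 2006 DEGs instead of 867 in the tlr4f/f-lysM-cre pair, 3996 instead of 2500 in the unstimulated pair, and 2181 instead of 1104 interactions. The single fit gave 732 calls and 75 DEGs in the tlr4f/f pair, 8367 calls and 4258 DEGs in the unstimulated pair, and 4914 calls and 2053 DEGs, instead of 8938 and 3165, in the LPS pair. In the tlr4f/f pair there were also 297 calls and 34 DEGs without a filter and 43 calls with the sum over rows, and without a filter 733 interactions. The block left 212 DEGs in the tlr4f/f-lysM-cre pair, and without the libraries high in stromal markers there were 7648 calls there and 516 in the unstimulated pair.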
